A study of Solanum lycopersicum and Solanum pimpinellifolium with 9 samples.

Results

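Among 34727 gene IDs of tomato, 82 reached 50 RPKM or more in every one of 9 tissue libraries and stayed within about 4-fold between them. They were chosen by their measured values. A gene was included when it reached 50 RPKM or more in all 9 libraries and when its highest and lowest log2(RPKM + 5) differed by 2 or less, that is by about 4-fold. RPKM is the number of reads per kilobase of gene model, scaled to a common size of library, and the 5 RPKM added before taking logarithms damp differences between low values. The level alone was met by 526 genes, of which the 82 even genes make 15.6%, and they make 0.236% of all gene IDs. The other 444 genes at this level had wider ranges and serve below as the comparison. Both the level and the range are therefore given as a description of the even genes, without a test.

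Genes of this kind are often called housekeeping genes. As background, they encode parts that nearly every living cell needs, such as ribosomes, the machinery of protein turnover, the cytoskeleton and central carbon metabolism. They matter in practice because the transcript level of another gene is commonly expressed relative to a reference gene that is assumed to be steady across the tissues compared. Tomato is a hard case for that assumption, since its organs range from root to photosynthetic leaf, pollen-bearing flower and ripening fruit, in which chloroplasts turn into chromoplasts. A further point of background is that RPKM is a share. When a few genes take a large part of the reads of a tissue, the RPKM of all others is lower there even if their transcripts per cell are not.

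The libraries came from cultivar MoneyMaker of Solanum lycopersicum, the cultivated tomato, and from its wild relative Solanum pimpinellifolium, accession LA0722, grown in soil in a greenhouse with 16 h of light and 8 h of dark. MoneyMaker gave 7 libraries. They were grown root, upper stem below the apical meristem, fully expanded leaf of 2 to 3 weeks, open flower at anthesis without sepals, and fully grown fruit that was mature green, at the breaker stage when colour starts to turn, or red ripe. LA0722 gave 2 libraries, fully expanded leaf of 2 to 4 weeks and ripe red fruit. No genotype other than these and no treatment is named in the labels. They do not say how many plants went into a library.

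Each group holds 1 library, so no difference had a replicate check and no test was run; values are set against counting error only. The read totals used to scale the libraries, as the RPKM values imply, ran from 211199 in LA0722 ripe fruit to 380302 in MoneyMaker leaf. For a gene of 1 kb, 1 read therefore adds 2.63 RPKM in the deepest of these libraries and 4.73 RPKM in the shallowest. Reads recovered for genes listed in 5 or more libraries made 37.6% of the total in flower and 77.0% in MoneyMaker leaf. In the other libraries they made 85.2% to 92.8%, and what the remainder holds was not tested. The IDs carry no gene names in the deposited table, and none of them was found in the reference gene table of 41476 genes, so the even genes are described by ID and by value, with no role given. Markers of organs could not be looked up for the same reason, and the tissue labels were not checked against them. The RNA is from whole tissues, so fewer cells of a type and less RNA per cell cannot be told apart.

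The most even gene was Solyc01g109770, with a range of 1.03 log2 units. It stood at 162 RPKM in root, 233 in stem, 112 in flower, 207 in MoneyMaker leaf and 136 in LA0722 leaf, and in fruit 158 at the mature green, 175 at the breaker and 164 at the ripe stage of MoneyMaker and 178 in ripe LA0722. Flower was lowest and stem highest, and the fruit libraries of both species lay in the narrow band between 158 and 178 RPKM. The lowest value rested on 14 reads and had a 95% exact Poisson interval of 61.2 to 188 RPKM, which reached past the lower bound of 171 RPKM of the highest library. Counting error alone could thus not separate any of the 9 libraries from flower by these intervals.

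Solyc11g042930 was next, with a range of 1.06. Its RPKM was 316 in root, 342 in stem, 239.9 in flower, 236 in MoneyMaker leaf and 447 in LA0722 leaf, and in fruit 425 at the mature green, 299 at the breaker and 419 at the ripe stage of MoneyMaker and 212 in ripe LA0722. The extremes were the leaf and the ripe fruit of LA0722, and their intervals, 344 to 572 and 132 to 325 RPKM, did not overlap. Solyc12g056230, with a range of 1.09, held 242 RPKM in root, 231 in stem, 137 in flower, 133 in MoneyMaker leaf and 207 in LA0722 leaf, and in fruit 208 at the mature green, 127 at the breaker and 209 at the ripe stage of MoneyMaker and 111 in ripe LA0722. It had 5 libraries above 200 RPKM and 4 below 140 RPKM, the latter being MoneyMaker leaf, flower, breaker fruit and LA0722 ripe fruit. Its values rested on 12 to 42 reads per library, and the counting intervals of all 8 other libraries overlapped that of LA0722 ripe fruit.

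Solyc04g074240 followed with a range of 1.24. It held 174 RPKM in root, 104 in stem, 159 in flower, 70.3 in MoneyMaker leaf and 161 in LA0722 leaf, and in fruit 157 at the mature green, 158 at the breaker and 141 at the ripe stage of MoneyMaker and 132 in ripe LA0722. Here flower stood level with mature green and breaker fruit, and MoneyMaker leaf was lowest, stem next lowest and root highest. Solyc03g097010, with a range of 1.25, held 139.6 RPKM in root, 236 in stem, 96.6 in flower, 116 in MoneyMaker leaf and 186 in LA0722 leaf, and in fruit 128 at the mature green, 219.9 at the breaker and 153 at the ripe stage of MoneyMaker and 168 in ripe LA0722. Its reads were few, from 7 in flower to 27 in stem, and all 9 counting intervals overlapped that of flower.

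Solyc07g005560 and Solyc02g087750 were the most even of the strongly expressed genes, and their counts were large enough to show that the remaining differences exceed counting error. Solyc07g005560, with a range of 1.25, held 1188 RPKM in root, 1069 in stem, 533 in flower, 599 in MoneyMaker leaf and 495 in LA0722 leaf, and in fruit 1080.1 at the mature green, 752 at the breaker and 697 at the ripe stage of MoneyMaker and 578 in ripe LA0722. Root, stem and mature green fruit were the 3 high libraries, and both leaves, flower and LA0722 ripe fruit were low. Solyc02g087750, with a range of 1.28, held 489.9 RPKM in root, 705 in stem, 408 in flower, 332 in MoneyMaker leaf and 369 in LA0722 leaf, and in fruit 816 at the mature green, 721 at the breaker and 387 at the ripe stage of MoneyMaker and 712 in ripe LA0722. Its ripe fruit libraries went apart, with LA0722 near the top of the order and MoneyMaker near the bottom.

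The last 3 of the 10 most even genes were expressed at a lower level. Solyc01g005600, with a range of 1.37, held 141 RPKM in root, 135 in stem, 88.1 in flower, 67.0 in MoneyMaker leaf and 125 in LA0722 leaf, and in fruit 124 at the mature green, 181 at the breaker and 152 at the ripe stage of MoneyMaker and 147 in ripe LA0722. MoneyMaker leaf and flower were low and the other 7 libraries lay between 124 and 181 RPKM. Solyc10g086350, with a range of 1.39, held 109 RPKM in root, 72.9 in stem, 86.2 in flower, 60.6 in MoneyMaker leaf and 97.0 in LA0722 leaf, and in fruit 111 at the mature green, 136 at the breaker and 73.8 at the ripe stage of MoneyMaker and 167 in ripe LA0722. Solyc03g115860, with a range of 1.43, held 135 RPKM in root, 176 in stem, 119 in flower, 147 in MoneyMaker leaf and 78.7 in LA0722 leaf, and in fruit 78.0 at the mature green, 173 at the breaker and 219 at the ripe stage of MoneyMaker and 96.1 in ripe LA0722. Its lowest libraries, mature green fruit and LA0722 leaf, differed by 0.01 log2 units, so that no single one can be called lowest.

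**Figure D1:**
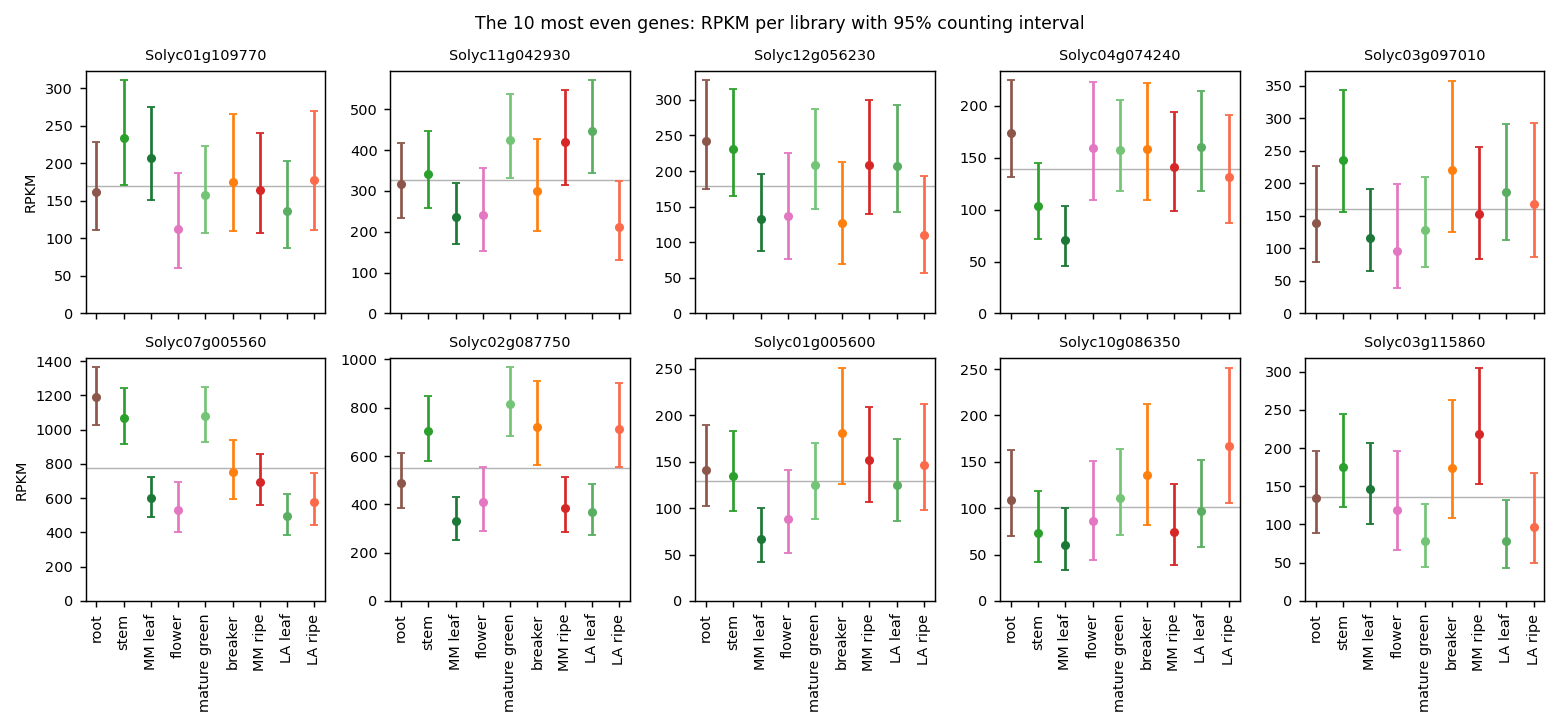
RPKM (vertical axes, from 0) of the 10 most even genes in each library (horizontal axes; MM, MoneyMaker; LA, LA0722). Points are the single libraries, bars their 95% exact Poisson intervals and grey lines the mean over the 9 libraries; in Solyc01g109770 the bars of flower and stem overlap, in Solyc07g005560 those of root and LA0722 leaf do not.

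Very few genes were much more even than the limit. Ranges over the 82 genes ran from 1.03 to 1.99 with a median of 1.80, against 2.01 to 8.33 with a median of 3.03 in the other 444 genes, a split that the rule itself sets. Of the 82 genes, 5 had a range of at most 1.25, 15 of at most 1.5 and 37 of at most 1.75, and none came under 1. Just inside the limit were Solyc11g061770 at 1.9889 and Solyc01g101000 at 1.9863, and just outside it Solyc01g022750 at 2.0134 and Solyc02g080510 at 2.0216. The highest RPKM was 2.08 to 4.20 times the lowest within each even gene, with a median ratio of 3.57.

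The level was moderate for most even genes. Their mean RPKM over the 9 libraries ran from 93.2 to 2646, with a median of 213, against a median of 405 in the other 444 genes. By median RPKM, even genes made up 34 of the 118 genes between 100 and 200 RPKM (28.8%), 25 of 181 between 200 and 400 (13.8%), 12 of 135 between 400 and 800 (8.89%) and 6 of 82 at 800 or more (7.32%). Between 50 and 100 RPKM they were 5 of 10 genes. A gene whose median lies close to 50 RPKM has little room below it, so the level required in every library bears on these shares. Nearest to that level inside were Solyc10g086010, at 50.7 RPKM in LA0722 ripe fruit, and Solyc10g086400, at 51.1 RPKM in MoneyMaker leaf. Nearest outside, with ranges within the limit, were Solyc12g009990 at 49.5 RPKM in MoneyMaker leaf and Solyc10g081380 at 49.4 RPKM in flower.

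At the top of the scale, Solyc00g008570 had the highest mean of log2(RPKM + 5) among the even genes. It held 1333 RPKM in root, 1684 in stem, 3541 in flower, 1208 in MoneyMaker leaf and 2605 in LA0722 leaf, and in fruit 1922 at the mature green, 4659.6 at the breaker and 3364 at the ripe stage of MoneyMaker and 3498 in ripe LA0722. The coding length inferred for it, 111 nt, is short, so these RPKM values rest on 50 to 111 reads; reads that reach beyond the coding part would raise them, which was not tested. Solyc01g058500, the other, held 1401 RPKM in root, 1289.9 in stem, 2305 in flower, 965 in MoneyMaker leaf and 3612 in LA0722 leaf, and in fruit 1879.8 at the mature green, 1913 at the breaker and 2358 at the ripe stage of MoneyMaker and 2516 in ripe LA0722. In both genes MoneyMaker leaf was lowest and flower was well above root and stem, unlike in most even genes.

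Whole reads behind the RPKM values showed how much of the remaining spread counting could give. For each gene the squared deviations of its reads from those expected at a common RPKM were divided by the expected reads and averaged over 8 degrees of freedom, which gives about 1 when the spread is counting error alone. This ratio ran from 1.27 to 46.5 in the even genes, with a median of 5.28. Its median was 20.8 in the other 444 genes. The limit on the range holds the spread of the even genes down in advance, so nothing is read from this difference. For a given relative spread the ratio also grows with the number of reads. Reads summed over the libraries had a median of 296 in the even genes and 535.5 in the others. The ratio stayed under 2 in 5 even genes, Solyc01g109770 (1.27), Solyc03g097010 (1.35), Solyc09g009640 (1.69), Solyc10g086350 (1.96) and Solyc12g056230 (1.99), which were also expressed at a low level. The ratio was 46.5 for Solyc01g103540 and 38.7 for Solyc06g084020, where counting alone gives a coefficient of variation of 5.78% and 6.62% and the observed ones were 38.5% and 40.7%. The observed coefficient of variation ran from 21.1% to 54.2% over the 82 genes, and that from counting from 5.78% to 27.9%. Evenness within 4-fold is therefore not evenness within counting error for most of them.

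**Figure D2:**
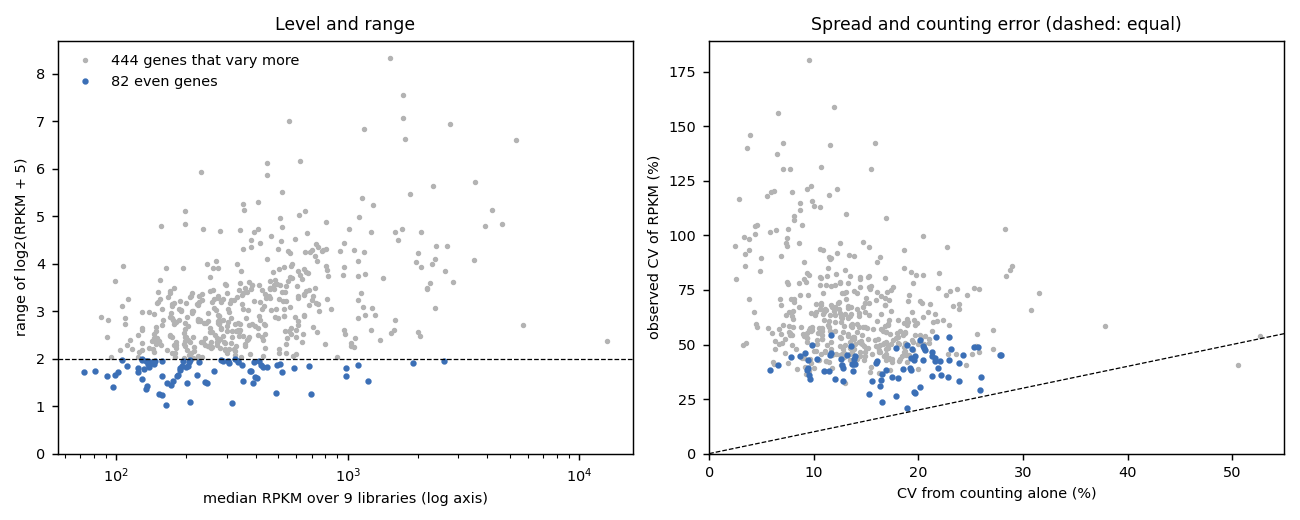
Left, range of log2(RPKM + 5) against median RPKM on a log axis for the 82 even genes (blue) and the 444 other genes at 50 RPKM or more in all 9 libraries (grey), with the limit of 2 dashed. Right, observed coefficient of variation (CV) of RPKM against that from counting alone, in percent; all 82 even genes lie above the dashed line of equality, with Solyc01g109770 at 21.1% against 18.9%.

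Even genes were neither shorter nor longer by the median than the others at their level. The inferred coding length was 111 to 1932 nt with a median of 492 nt, against a median of 496.5 nt in the 444 genes. They are spread over the genome as far as the IDs show: the number after Solyc gives the chromosome by convention, with 0 for unplaced sequence, and every number from 0 to 12 was present. Number 1 held 14 even genes (17.1%, against 12.4% of all IDs) and number 2 held 11 (13.4%, against 9.64%). Number 5 held 3 (3.66%, against 6.96%). Shares of all IDs also reflect the level, so these differences are not read as particular to the even genes. Of the genes at the level, even genes were 14 of 85 in number 1, 11 of 49 in number 2 and 3 of 29 in number 5. They made 15.6% of all genes at the level. Only 1 pair of even genes had IDs that follow each other in the table, Solyc01g100860 and Solyc01g100870. Both were lowest in MoneyMaker leaf, at 212 and 224 RPKM, and highest in mature green fruit, at 718 and 701 RPKM. Reads shared between near-identical neighbours could not be looked for without their sequences, so these 2 genes may not be independent.

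The library in which each even gene was lowest was mostly MoneyMaker leaf or flower on the deposited scale. MoneyMaker leaf was lowest for 33 of the 82 genes (40.2%) and flower for 27 (32.9%). Next came LA0722 leaf with 8 (9.76%), LA0722 ripe fruit with 6 (7.32%), mature green fruit with 3 (3.66%), stem with 2 (2.44%), and root, breaker fruit and MoneyMaker ripe fruit with 1 each (1.22%). Among the 444 genes that vary more, flower was lowest for 55.2%, MoneyMaker leaf for 18.2%, LA0722 leaf for 9.68%, LA0722 ripe fruit for 9.01%, root for 2.03%, MoneyMaker ripe fruit for 2.03%, breaker fruit for 1.58%, stem for 1.35% and mature green fruit for 0.901%. MoneyMaker leaf and flower together were lowest for 60 even genes (73.2%) and for 73.4% of the others, so their joint share was near the background and only its division differed. The limit on the range removes genes that are far down in a single library, so nothing is read from that division. Among the genes that met the rule with median-ratio size factors the joint share was 39.0%, with upper-quartile scaling 46.8% and with no lowest level 12.2%, where a gene tied for lowest counts for no library.

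The highest value was most often in MoneyMaker ripe fruit, for 23 even genes, 28.0%, against 28.8% of the other 444. Stem was highest for 11 genes (background 10.6%), LA0722 ripe fruit for 10 (10.8%), root for 9 (9.68%), LA0722 leaf for 9 (12.6%), breaker fruit for 8 (11.0%) and mature green fruit for 7 (11.0%). Flower was highest for 3 (background 3.60%) and MoneyMaker leaf for 2 (1.80%). The 3 that peaked in flower were Solyc04g076670, at 338 RPKM there, Solyc01g008950, at 1196 RPKM, and Solyc01g101000, at 616 RPKM. All of these were lowest in MoneyMaker leaf, at 113, 321 and 152 RPKM. The 2 that peaked in MoneyMaker leaf were Solyc01g103410, at 271 RPKM there and 76.1 in flower, and Solyc01g094480, described below.

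**Figure D3:**
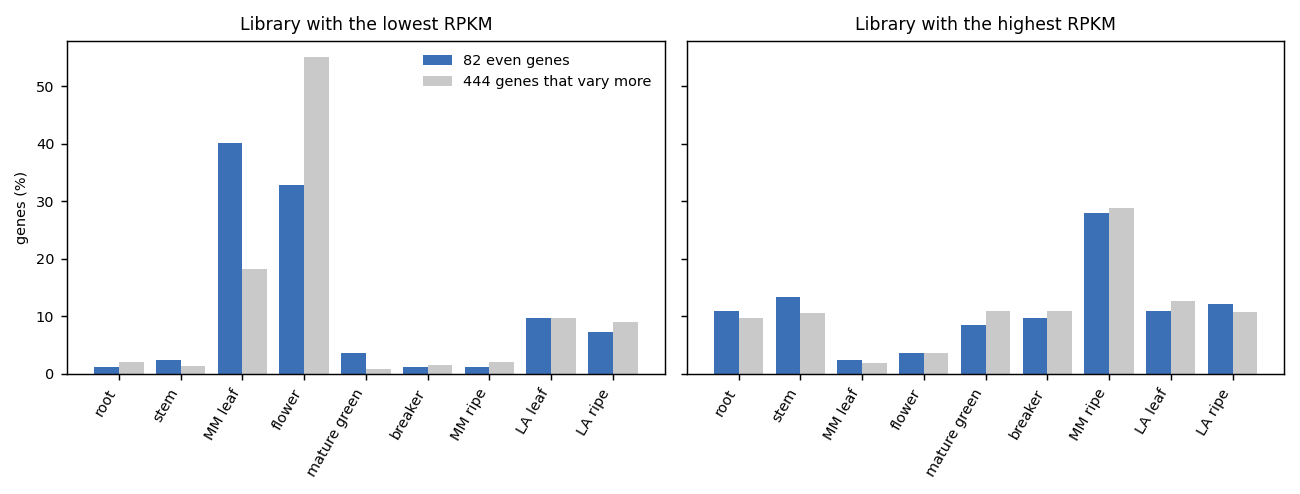
Share of genes in percent (vertical axis, from 0) whose lowest (left) or highest (right) RPKM was in each library, for the 82 even genes (blue) and the 444 genes that vary more (grey). MoneyMaker leaf (MM leaf) and flower hold the tall bars on the left, 40.2% and 32.9% of the even genes, and MoneyMaker ripe fruit (MM ripe) the tallest on the right, 28.0%; LA, LA0722.

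Which library is lowest was close to a tie for many genes. The gap between the lowest and the next lowest log2(RPKM + 5) had a median of 0.23, from 0.01 to 0.91. Its median was 0.61 in the other 444 genes, but the limit on the range holds the gap of the even genes down in advance. In all 82 genes the 95% counting interval of the lowest library overlapped that of the next lowest, and the median number of other libraries whose interval overlapped the lowest was 5. In 5 genes, Solyc01g109770, Solyc12g056230, Solyc03g097010, Solyc07g053160 and Solyc09g009640, it overlapped those of all 8 others. MoneyMaker leaf was next lowest for 11 of the 27 genes lowest in flower, and flower was next lowest for 12 of the 33 lowest in MoneyMaker leaf. Both bottom places were thus held by these 2 libraries in 23 genes. Overlaps and bottom places were not counted in the other 444 genes, so these counts are not read as particular to the even genes.

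The 33 genes lowest in MoneyMaker leaf had ranges from 1.24 to 1.99 and lowest values from 51.1 to 1208 RPKM. Beside those already given, Solyc04g074240, Solyc02g087750, Solyc01g005600, Solyc10g086350, Solyc10g086400, Solyc01g100860, Solyc01g100870, Solyc04g076670, Solyc01g008950, Solyc01g101000, Solyc00g008570 and Solyc01g058500, they were Solyc02g084760, Solyc12g005270, Solyc12g044850, Solyc02g092270, Solyc08g075860, Solyc02g094030, Solyc07g020860, Solyc08g077220, Solyc06g034160, Solyc09g007490, Solyc02g071150, Solyc05g012160, Solyc11g005450, Solyc10g079080, Solyc08g006000, Solyc08g005910, Solyc03g117770, Solyc09g005720, Solyc06g065180, Solyc07g006270 and Solyc07g063870. The widest gap was that of Solyc02g092270, where MoneyMaker leaf stood at 182 RPKM and the next library at 328. It held 423 RPKM in root, 411 in stem, 385 in flower and 403 in LA0722 leaf, and in fruit 549 at the mature green, 403 at the breaker and 560.2 at the ripe stage of MoneyMaker and 328 in ripe LA0722. Without the MoneyMaker leaf value it would be among the most even genes, but that value rests on 16 reads of a coding length of 231 nt. Solyc07g063870 had the widest leaf difference between the species, 132 RPKM in MoneyMaker and 529 in LA0722, which was also its highest library.

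The 27 genes lowest in flower had ranges from 1.03 to 1.98 and lowest values from 53.1 to 453 RPKM. They were Solyc01g109770, Solyc03g097010, Solyc01g103410, Solyc06g084020, Solyc01g103540 and Solyc09g009640, named above or below, and Solyc04g074550, Solyc07g049360, Solyc10g085480, Solyc08g080240, Solyc03g113730, Solyc11g013020, Solyc12g096520, Solyc04g007230, Solyc02g093110, Solyc02g014870, Solyc02g094200, Solyc06g072030, Solyc01g107870, Solyc01g102830, Solyc10g078300, Solyc09g010400, Solyc03g096940, Solyc08g074750, Solyc08g065900, Solyc04g082020 and Solyc02g088260. Solyc09g009640 had the widest gap of all 82 genes, from 62.4 RPKM in flower to 122 in the next library, LA0722 leaf. Its other values were 227 RPKM in root, 237 in stem and 131 in MoneyMaker leaf, and in fruit 192 at the mature green, 155 at the breaker and 234 at the ripe stage of MoneyMaker and 221 in ripe LA0722. The flower value rested on 4 reads, the fewest behind any value of the even genes, with an interval of 17.0 to 159.7 RPKM. Solyc01g103540, by contrast, had 98 reads or more in every library; it stood at 275 RPKM in flower and 998 in LA0722 leaf, well outside counting error.

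The LA0722 libraries were lowest for 14 genes. The 8 lowest in LA0722 leaf were Solyc07g005560, Solyc07g053160, Solyc02g077410, Solyc01g009780, Solyc06g062510, Solyc06g066100, Solyc01g049960 and Solyc11g071260. Of these Solyc06g066100 had the widest gap. It held 145 RPKM in root, 215 in stem, 133 in flower, 116 in MoneyMaker leaf and 77.3 in LA0722 leaf, and in fruit 223 at the mature green, 301 at the breaker and 277 at the ripe stage of MoneyMaker and 135 in ripe LA0722. The leaves of both species were its lowest libraries. Lowest in LA0722 ripe fruit were Solyc11g042930, Solyc12g056230, Solyc05g051500, Solyc10g005670, Solyc10g086010 and Solyc01g094480. The widest gap there was in Solyc01g094480, at 118 RPKM in root, 137 in stem, 90.4 in flower, 254 in MoneyMaker leaf and 119 in LA0722 leaf, and in fruit 177 at the mature green, 177 at the breaker and 181 at the ripe stage of MoneyMaker and 62.1 in ripe LA0722. Its MoneyMaker libraries of fruit lay close together, at 177 to 181 RPKM, while both LA0722 values were lower than those of the same MoneyMaker organ.

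A library of MoneyMaker fruit was lowest in 5 genes. Solyc03g115860, Solyc04g056390 and Solyc04g074580 were lowest in mature green fruit. Solyc04g074580 held 1900.4 RPKM in root, 1104 in stem, 922 in flower, 1049 in MoneyMaker leaf and 2394 in LA0722 leaf, and in fruit 659 at the mature green, 1077 at the breaker and 2419.9 at the ripe stage of MoneyMaker and 1659 in ripe LA0722. It had more in each later fruit stage and had 81 to 296 reads per library. Solyc02g069720 was lowest in breaker fruit, at 57.2 RPKM, practically tied with LA0722 ripe fruit at 58.1, both on 6 reads. Its other values were 127 RPKM in root, 103 in stem, 144 in flower, 69.9 in MoneyMaker leaf and 238 in LA0722 leaf, and 106 and 121 in mature green and ripe MoneyMaker fruit. Solyc05g009690 was the only even gene lowest in MoneyMaker ripe fruit, at 108 RPKM, and it was highest, at 331 RPKM, in ripe fruit of LA0722. It held 289 RPKM in root, 129.6 in stem, 129 in flower, 119 and 121 in the leaves of MoneyMaker and LA0722, and 134 and 156 in mature green and breaker fruit, so that 7 of the 9 libraries lay between 108 and 156 RPKM.

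Root and stem were lowest in only 3 genes. Solyc11g061770 was lowest in root, at 63.4 RPKM, and held 133 RPKM in stem, 82.1 in flower, 103 in MoneyMaker leaf and 71.3 in LA0722 leaf, and in fruit 129 at the mature green, 254 at the breaker and 267 at the ripe stage of MoneyMaker and 157 in ripe LA0722. Breaker and ripe fruit of MoneyMaker stood above the rest. Solyc08g067430 was lowest in stem, at 105 RPKM, and held 119.5 RPKM in root, 134 in flower, 279 in MoneyMaker leaf and 201 in LA0722 leaf, and in fruit 199 at the mature green, 251 at the breaker and 305 at the ripe stage of MoneyMaker and 207 in ripe LA0722. Root, stem and flower formed its low end. The other gene lowest in stem, Solyc00g006690, ran from 650.4 RPKM there to 1899 RPKM in MoneyMaker ripe fruit.

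Like the other 444 genes by their medians, the even genes were mostly low in MoneyMaker leaf and flower and mostly high in MoneyMaker ripe fruit. Relative to the mean of each gene over the 9 libraries, their median log2(RPKM + 5) was -0.61 in MoneyMaker leaf and -0.55 in flower, with 68 and 72 of the 82 genes below their own mean. It was 0.52 in MoneyMaker ripe fruit, with 66 genes above their mean, 0.20 in mature green fruit (55 above), 0.19 in breaker fruit (53 above) and 0.17 in root (54 above). Stem, with a median of 0.10 and 49 genes above their mean, LA0722 ripe fruit, with 0.04 and 43, and LA0722 leaf, with -0.10 and 39, were divided. The other 444 genes had medians of -0.71 in MoneyMaker leaf, -1.37 in flower and 0.75 in MoneyMaker ripe fruit. The share of the 82 genes in the summed RPKM of a library was 1.41% for MoneyMaker leaf and 1.62% for flower, against 2.19% to 2.49% in the 7 other libraries. The share of the 10 top genes of each library was 22.5% for MoneyMaker leaf and 22.0% for flower. It was 24.4% for LA0722 ripe fruit, 18.6% for MoneyMaker ripe fruit and 7.65% to 14.5% for the rest. All 526 genes at the level together made 11.0% for flower and 16.7% for MoneyMaker leaf, against 21.7% to 33.3% in the other libraries. Genes at 50 RPKM or more numbered 2099 in flower and 2732 in MoneyMaker leaf, against 3369 to 4279 in the other libraries. The part of these shares and numbers in the low values was not tested.

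The place of flower depends on the scale, since a factor moves every gene of a library alike. Median-ratio size factors multiply flower by 2.59, MoneyMaker leaf by 1.53 and the 7 others by 0.70 to 0.94, which puts the medians of the same 82 genes at 0.78 in flower and -0.01 in MoneyMaker leaf. With upper-quartile scaling the flower median was 0.52 and that of MoneyMaker leaf -0.32. With columns brought to equal sums they were -0.60 and -0.57, close to the deposited values. As the 82 genes were chosen on the deposited scale, the positive flower medians follow from the factors and say nothing more of these genes. Genes chosen anew under each scaling had flower medians of -0.18 with median-ratio factors and -0.26 with upper-quartile scaling.

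**Figure D4:**
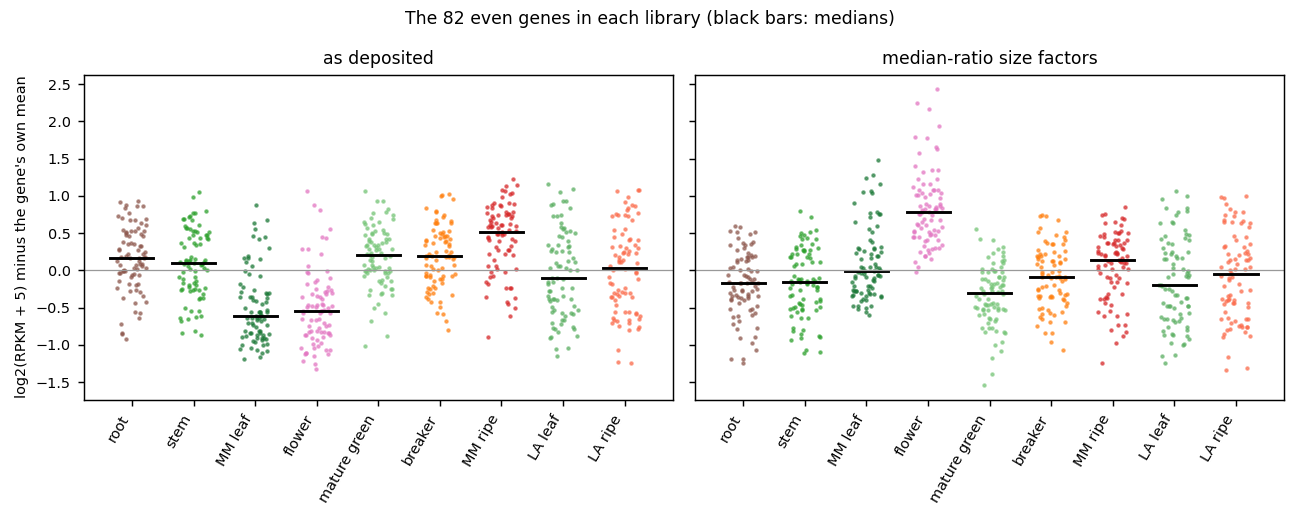
Log2(RPKM + 5) of the 82 even genes minus the gene's own mean over the 9 libraries (vertical axis) in each library, as deposited (left) and with median-ratio size factors (right). Each point is a gene and black bars are medians; the factor of 2.59 for flower carries its median from -0.55 on the left to 0.78 on the right (MM, MoneyMaker; LA, LA0722).

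The set itself depended on the scaling and on flower. Under median-ratio size factors 328 genes met the rule, 55 of the 82 among them, and under upper-quartile scaling 248 genes, 61 of the 82 among them. Under equal sums it was 82 genes, 75 of them shared. None of the 10 most even genes as deposited was among the 10 most even with either median-ratio or upper-quartile scaling, and 8 were with equal sums. Leaving out flower raised the number of genes meeting the rule from 82 to 372, of which MoneyMaker leaf was lowest for 194, and leaving out MoneyMaker leaf raised it to 129. Leaving out another library gave 89 to 122 genes. A rule over fewer libraries is looser, so these counts cannot be lower than 82. With the SD of log2(RPKM + 5) in place of the range, 7 of the 10 most even genes were shared, and with the coefficient of variation of RPKM 6 were; Solyc01g109770 led by either measure.

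**Figure D5:**
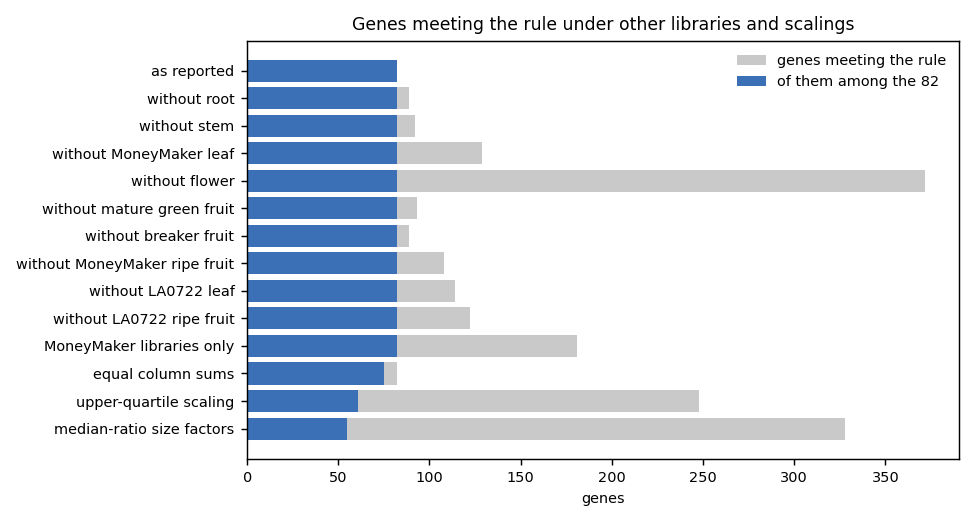
Number of genes meeting the rule (grey, horizontal axis from 0) when a library is left out, with MoneyMaker libraries only, or with the columns scaled in another way, and how many of them are among the 82 even genes (blue). The bar without flower reaches 372 and that with median-ratio size factors 328, of which 55 are shared.

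The rule could be carried from MoneyMaker to LA0722, whose libraries then took no part in the choice. Over the 7 MoneyMaker libraries alone, 181 genes met it, 27.6% of the 655 at 50 RPKM or more in all of these, and 82 of the 181 (45.3%) also met it with both LA0722 libraries added. Of the 99 that did not, 51 were under 50 RPKM in an LA0722 library and 48 passed that level but widened beyond the limit. Of all 655 genes, 526 kept the level in all 9 libraries. Falling under it in LA0722 was thus not confined to the 181 genes, and its share among the rest was not counted. In LA0722 leaf 90 of the 181 genes lay between their own MoneyMaker extremes, 60 below the lowest and 31 above the highest, that is 49.7%, 33.1% and 17.1%. Of the 474 genes at the level that vary more in MoneyMaker, whose extremes are wider, 70.5% lay between, 17.9% below and 11.6% above. In LA0722 ripe fruit 87 of the 181 lay between, 57 below and 37 above, or 48.1%, 31.5% and 20.4%, against 72.2%, 17.7% and 10.1% of the 474. The LA0722 libraries are single samples of another accession, so species and library cannot be told apart.

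The same organ in both species was compared gene by gene over the 82 even genes. In leaf 23 genes were higher by 1 log2 unit or more in LA0722 and 5 were lower, with a median difference of 0.54. Among all 7015 genes with 25 RPKM or more in either leaf, 39.8% were higher by that much and 24.5% lower, with a median of 0.60. In ripe fruit 5 even genes were higher in LA0722 and 22 lower, with a median of -0.38, against 20.9% and 30.2% of 7088 genes, with a median of -0.22. The other 444 genes at the level had medians of 0.65 in leaf and -0.74 in ripe fruit, so the signs were those of the background. Solyc11g071260 was the even gene furthest down in LA0722 leaf, by 1.59 log2 units less than in MoneyMaker leaf (a difference of -1.59), and Solyc10g086010 in ripe fruit (-1.92). Counting direction alone, 38 of the 82 genes were above MoneyMaker in leaf and below it in ripe fruit, 4 the reverse, 20 above in both and 20 below in both, or 46.3%, 4.88%, 24.4% and 24.4%. The shares in the other 444 genes were near these, 45.7%, 5.18%, 22.3% and 26.8%. As the rule used all of these libraries, the counts are given as a description.

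Between fruit stages of MoneyMaker few even genes differed by 1 log2 unit or more, which the limit on their range makes less frequent. From mature green to breaker 4 were higher and 4 lower by 1 log2 unit, with a median of 0.01, against 18.3% higher and 26.6% lower of 8098 genes. Ripe against breaker fruit had 13 higher and 2 lower, with a median of 0.29, against 21.1% and 20.4% of 7255. Ripe against mature green fruit had 12 higher and 3 lower, with a median of 0.27, against 20.8% and 28.2% of 8097. In the other 444 genes at the level the medians of these contrasts were -0.16, 0.40 and 0.25, in the same order. The higher medians in ripe fruit were thus not particular to the even genes. Solyc04g056390 was furthest up in breaker against mature green fruit among the even genes (a difference of 1.41) and Solyc09g007490 was the furthest down (-1.64). Solyc04g074580 had the largest difference from mature green to ripe, 1.87, and Solyc08g005910 the lowest, -1.37. Flower against root, the contrast with the largest median difference over all genes among those given here, had 2 even genes higher and 29 lower, with a median of -0.78, against 16.8% and 67.9% of 8462 genes. Its median in the other 444 genes was -1.71. Solyc00g008570 was the even gene furthest up in flower (1.41) and Solyc10g078300 the furthest down (-1.89).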

How the data were processed

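The authors deposited RPKM values for 34727 gene IDs in 9 columns, 1 per library; per the labels' protocols, cDNA was amplified with a SMART kit and read by 454 Titanium sequencing, aiming for 350000 reads per sample. The submitters' processing notes name HTSeq. The aligner, genome build and annotation were not given in the sources used here. Each column was assigned by its name; the MoneyMaker columns named for mature fruit and for a berry with the number 10 were taken as mature green and, by elimination, ripe fruit.

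The rule (50 RPKM in all libraries, range of log2(RPKM + 5) of at most 2) was applied to the deposited values. Whole reads were recovered from them for all 526 genes at that level, within 0.05 of a whole number, which the method requires and which is therefore no check. Lengths were taken as multiples of 3, an inference that also sets the totals. Recovery was tested on data simulated from the recovered reads, lengths and totals. That test took the same totals and multiples of 3 as given, so it could not check either. Poisson intervals are exact, at 95%, and cover counting error only. The members and lists were chosen with earlier results of these data known. Genes described in full are the 10 with the smallest range, the one with the widest gap per lowest library, the 2 with the highest level, and those next to each threshold. Alternatives were other pseudocounts, levels, ranges, scalings and sets of libraries. Planned lists by gene product were not used, because no ID could be paired with a product. Software was Python 3.11.15, NumPy 2.4.6, pandas 2.3.3, SciPy 1.17.1 and matplotlib 3.10.9.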

Additional observations from a re-analysis of the deposited data

Results flagged for a closer look

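The difference between the species over the 82 even genes had opposite signs in the 2 organs. The median of LA0722 minus MoneyMaker was 0.54 log2 units in leaf and -0.38 in ripe fruit. The signs were the same over all genes compared, with medians of 0.60 and -0.22, and over the other 444 genes at the level, with 0.65 and -0.74, so they are not particular to the even genes. With 1 library per species and organ, the difference between these medians was not tested. MoneyMaker leaf was low for the even genes relative to their other libraries and MoneyMaker ripe fruit high, by medians of -0.61 and 0.52. The other 444 genes had -0.71 and 0.75 there. The part of these libraries in the contrast was not tested.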

How the results depend on the processing

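No paired analysis was possible because each group holds 1 library and no result comes from a test. The number of even genes went from 82 to 159 at a level of 25 RPKM, 46 at 100 RPKM, 7734 with no lowest level, 15 at a range of 1.5, 0 at a range of 1, 328 with median-ratio size factors, 248 with upper-quartile scaling and 181 with MoneyMaker libraries only. With 1 library left out it ran from 89 to 372, the highest without flower and 129 without MoneyMaker leaf. The share lowest in MoneyMaker leaf, 40.2%, was 3.83% with no lowest level, 17.4% with median-ratio factors, 24.2% with upper-quartile scaling, and 36.1% to 52.2% with 1 library left out. Flower was lowest most often instead at 25 RPKM (59 genes against 48), with no lowest level (651 against 296), with median-ratio factors (71 against 57) and without MoneyMaker ripe fruit (41 against 40), and without MoneyMaker leaf itself, and the libraries tied without LA0722 ripe fruit (44 each). The levels below are medians over the genes that met the rule under each setting, so the genes differ from the 82. The LA0722 leaf level turned to 0.0086 at 25 RPKM and at a range of 1.5, 0.055 at 100 RPKM, 0.0108 with median-ratio factors and 0.0566 with upper-quartile scaling. With no lowest level, mature green fruit was at -0.0369, breaker fruit at -0.1253, MoneyMaker ripe fruit at -0.1346, MoneyMaker leaf at -0.1334 and flower at -0.2039. With median-ratio factors, mature green fruit was at -0.039, breaker fruit at -0.0624, MoneyMaker leaf at -0.1136, flower at -0.1818 and flower minus root at -0.1888. With upper-quartile scaling root was at -0.1334, flower at -0.2605 and flower minus root at -0.0897. The ratio of spread to counting was 2.85 at a range of 1.5. The cause of these changes was not tested. The fewest reads stood behind the flower values, with a median of 16 per even gene.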
